A study of Mus musculus with 6 samples.

Results

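The non-receptor tyrosine kinases of the Src, Syk and Tec families, and the phospholipase that they activate, were followed in macrophages grown from the bone marrow of mice, either wild type (WT) or carrying a knockin (KI). The genes are Src, Lyn, Fgr, Fyn and Yes1 of the Src family, Syk, the Tec family kinases Btk and Tec, and the phospholipase Plcg2. A probe set was taken when the platform annotation paired it with 1 of these genes and no other. By that rule 8 of the 9 genes, of 18193 genes in all, had 17 of the 45101 probe sets on the array, and Lyn was not analysed here. Both genotypes carried the C57BL/6 background, and both were treated in the same way, with 44 ng/ml M-CSF together with 100 ng/ml RANKL for 24 hours. The series title names the IVVY motif of RANK, the receptor of RANKL, as the subject of the study, but the labels do not say which residues the knockin changes. Each genotype has 3 arrays. Nothing in the labels says whether they came from separate mice, so p-values measure the spread between these arrays, which may be technical.

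Src and Syk family kinases act next to the receptor. A Src family kinase phosphorylates the tyrosine-based activation motif (ITAM) of an adaptor such as DAP12, Syk docks there and is activated, and Tec family kinases together with adaptors of the BLNK type then bring phospholipase C gamma to its substrate, which releases calcium from internal stores. Macrophages use this route behind Fc receptors and integrins. In cells that RANKL drives towards osteoclasts it supplies the calcium signal for NFATc1, and Src is also needed for the ruffled border with which the mature osteoclast resorbs bone.

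The median intensity of an array lay between 83.0 and 84.8, and the arrays differed mainly by genotype along a first principal component that held 82.2% of the variance. On that axis WT 1 and KI 1 lay farther out than the other arrays of their groups. On the deposited scaling all 8 macrophage markers rose in KI cells, and 7 of the 8 osteoclast markers bright enough to test fell (of 9 listed), where 20.9% of all tested genes were higher and 27.0% lower, with summed intensities of 90761 to 111245 on WT and 135581 to 141077 on KI arrays for the former, and of 70463 to 81016 and 32590.3 to 36449 for the latter. Fewer cells of a type and less RNA per cell cannot be told apart in such bulk samples. Tnfrsf11a, the gene of RANK, fell on 1 of its 2 probe sets (by 1.14 on the log2 scale, adjusted p = 0.00151 by limma) and differed by 0.22 on the other (adjusted p = 0.446). The parts of the transcript that they cover were not analysed here, so neither checks the labels. All differences below are KI minus WT on the log2 scale of the deposited intensities, floored at 16. They come from 1 limma fit over 22518 probe sets, those whose mean lay above the median of all, with p-values adjusted over all of them by the Benjamini-Hochberg method and a threshold of 0.05.

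Of the 17 probe sets 13 were bright enough to be tested, and they belong to 7 genes. Src was lower in KI cells on both of its probe sets, by 1.67 and 1.77. Fyn, Tec, Plcg2 and 1 of 4 Syk probe sets were higher, by 0.20 to 0.85. Fgr, Btk and the other 3 Syk probe sets did not pass the test, and the 4 of Yes1 were too dim for it. That makes 2 probe sets lower and 5 higher of 13, where 25.6% of all tested probe sets were lower and 19.3% higher, 44.9% in all. The groups did not overlap for 7 of the 13, against 60.9% of all tested probe sets, so the number of kinase probe sets that differed is near what the whole array shows. The median difference was 0.14 for the 13 and -0.04 for all.

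The direction of the smaller differences depends on the scaling of the arrays. The deposited arrays have nearly equal medians, and how they were scaled is not given in the sources used here. When the arrays were brought instead to equal levels of the 9 probe sets for hybridisation spike-ins, RNAs added in fixed amounts before hybridisation, every difference moved down by 0.21 (spike-in scaling). With 9 other probe sets for these spike-ins, of an older design, it moved down by 0.53 (older spike-in scaling). The calls over all probe sets went from 4345 higher and 5756 lower to 2546 and 9011 with the former, and to 728 and 10586 with the latter, while their median went from -0.04 to -0.25 and -0.57. Under older spike-in scaling 0 kinase probe sets were higher and 4 lower. Quantile normalization left 5 higher and 2 lower, as on the deposited scaling, with 4806 and 5362 over all probe sets. The 2 sets of spike-in probe sets gave unequal shifts, and which scaling holds was not tested. Of the 8 macrophage markers 5 were higher and 2 turned below 0 under spike-in scaling, and 3 were higher and 3 below 0 under the older one. All 8 tested osteoclast markers were lower under both.

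**Figure D1:**
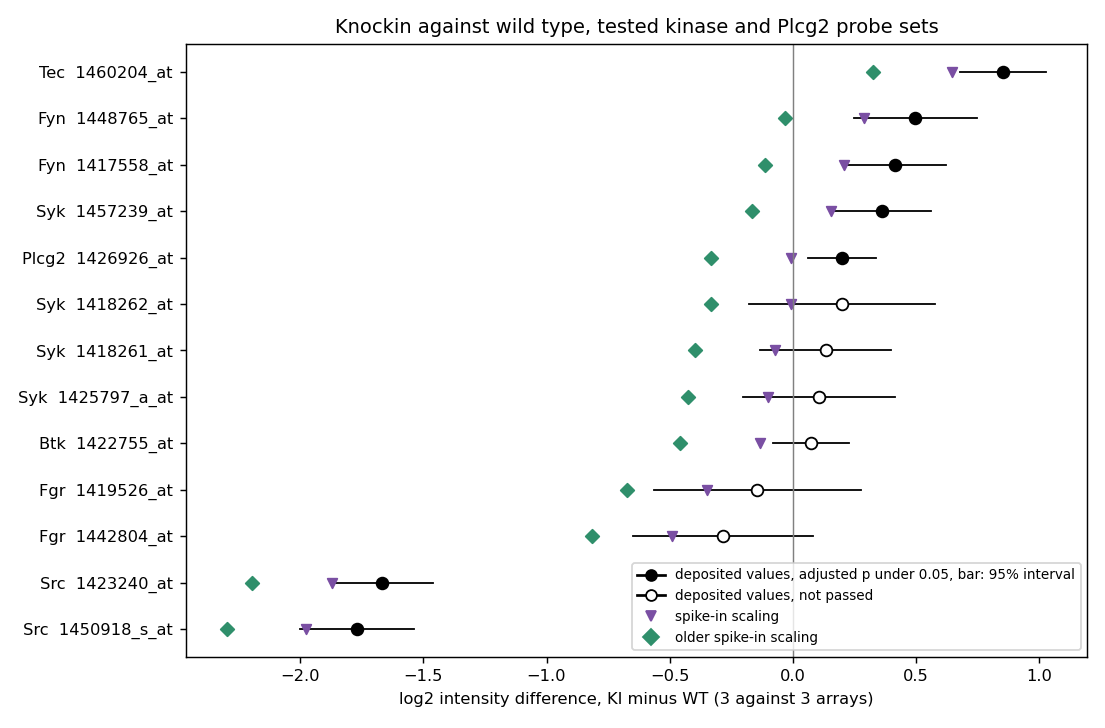
Log2 intensity difference between KI and WT arrays (x axis, 3 against 3 arrays) for each of the 13 tested probe sets (y axis), with 95% confidence intervals from the limma fit. Filled circles passed an adjusted p of 0.05 and open circles did not, and triangles and diamonds give the same difference under spike-in scaling and older spike-in scaling. Src lies at -1.67 and -1.77 and stays below 0 in each scaling, Tec stays above 0 at 0.85, 0.65 and 0.32, and Fyn falls below 0 with the older spike-ins, Plcg2 with both.

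The sequence before the start of Src, the gene that fell, is shown beside those of Fyn and Tec, the genes with the largest rises, so that their promoters can be compared. The 250 bases before each start are RefSeq's on GRCm38.p6, at chr2:157424043-157424292 (plus strand) for Src, chr10:39369549-39369798 (plus strand) for Fyn and chr5:72868449-72868698 (minus strand) for Tec. Capitals mark the only match to a searched motif, and all other bases are in lower case.
Src: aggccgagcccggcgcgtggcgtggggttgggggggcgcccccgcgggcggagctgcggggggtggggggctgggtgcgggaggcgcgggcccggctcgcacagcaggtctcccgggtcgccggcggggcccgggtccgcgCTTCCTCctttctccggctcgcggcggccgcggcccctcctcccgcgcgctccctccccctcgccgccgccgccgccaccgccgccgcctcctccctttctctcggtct
Fyn: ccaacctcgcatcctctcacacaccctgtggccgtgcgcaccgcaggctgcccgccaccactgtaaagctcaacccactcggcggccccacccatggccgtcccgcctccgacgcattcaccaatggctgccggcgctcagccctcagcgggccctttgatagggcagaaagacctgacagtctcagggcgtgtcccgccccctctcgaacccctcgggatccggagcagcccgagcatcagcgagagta
Tec: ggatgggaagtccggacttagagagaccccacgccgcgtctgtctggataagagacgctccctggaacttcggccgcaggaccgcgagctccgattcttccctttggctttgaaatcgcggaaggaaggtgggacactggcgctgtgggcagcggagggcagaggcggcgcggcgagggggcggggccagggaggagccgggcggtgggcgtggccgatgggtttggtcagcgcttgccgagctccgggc
All 3 stretches are rich in G and C, which make up 82.8% of the Src bases, 67.2% of the Fyn bases and 68.4% of the Tec bases, against a median of 52.4% over the 32851 promoters of the table. The CpG dinucleotide occurs 40 times in Src, 21 times in Fyn and 26 times in Tec, where the median promoter has 6.0. Both strands of the 300 bases from 250 before to 50 after the start were searched for GAGGAAG (core of PU.1 sites), TGANTCA (AP-1), CACGTG (E-box), TGGAAA (NFAT core) and a 10-base kappaB motif. Their shares over all promoters are 13.6%, 7.81%, 7.15%, 21.4% and 0.411%. Among the 9 promoters of 8 of these genes, the PU.1 letters stand in those of Src (bases -109 to -103, on the reverse strand), Fgr and Btk, the E-box letters in that of Plcg2, and no searched motif overlaps another. The start that macrophages use was not analysed here.

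**Figure D2:**
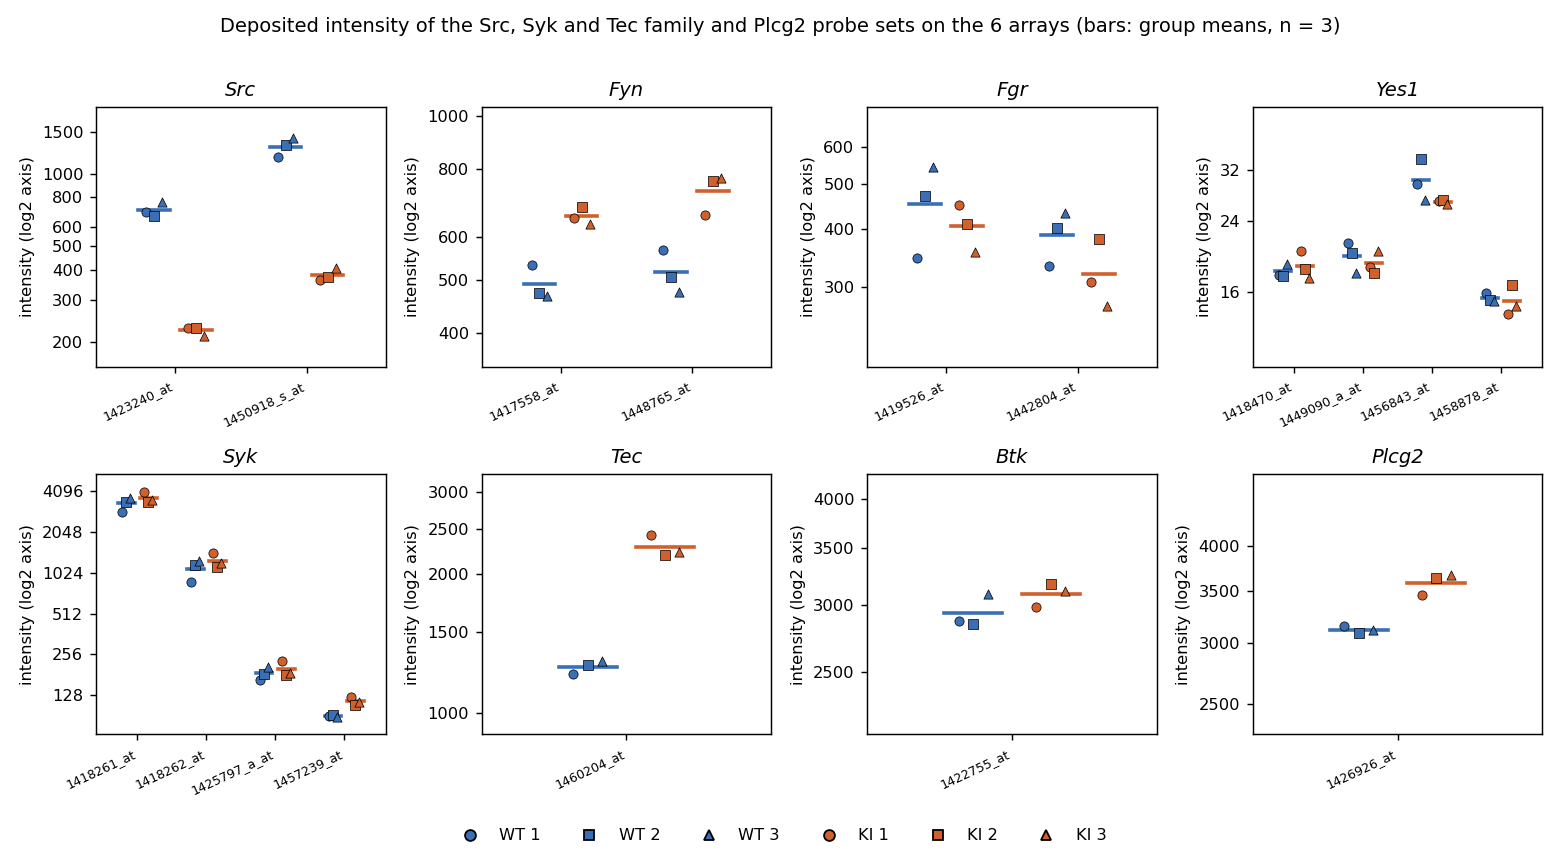
Deposited intensity (y axis, log2 scale, ranges differ between panels) of all 17 probe sets (x axis) on the 3 WT and 3 KI arrays, with 1 symbol per array and bars for the group means. KI arrays lie below all WT arrays on both Src probe sets and above them on Fyn, Tec, Plcg2 and Syk 1457239_at, and the Yes1 values lie between 14.1 and 34.0. These are deposited values, and the rises of Fyn, Plcg2 and Syk 1457239_at turn below 0 under older spike-in scaling.

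Src, the founding member of the family and a kinase of podosomes and the ruffled border, was lower in every KI array than in any WT array. Probe set 1450918_s_at had intensities of 1176, 1319 and 1412 on the WT arrays and of 363, 374 and 407 on the KI arrays. The groups lay far apart, and the highest KI array did not reach the lowest WT array. The means were 1302 ± 119 (SD, n = 3) and 381 ± 23.1 (SD, n = 3), a 3.41-fold lower level in KI cells (log2 difference -1.77, SE 0.10, 95% interval -2.00 to -1.54, adjusted p = 0.000202 by limma). Probe set 1423240_at gave 692, 672 and 766 on WT arrays against 229, 229 and 212 on KI arrays, 3.18-fold lower (-1.67, SE 0.09, adjusted p = 0.000202 by limma). Both probe sets were designed on the same sequence record, so they are not independent measures of the gene. They rank 102 and 130 among the falls of all 22518 tested probe sets. In all alternatives in which they could be tested, 18 and 19 of them, both stayed lower and passed, with differences between -2.30 and -1.54 and adjusted p of at most 0.0108.

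Fyn, a Src family kinase that many cell types express, was higher in KI cells. On probe set 1448765_at the WT arrays had 568, 507 and 474 and the KI arrays 658, 759 and 770.0. Each KI array exceeded each WT array, by a 1.41-fold difference of the means (log2 difference 0.50, SE 0.11, 95% interval 0.25 to 0.75, adjusted p = 0.00978 by limma). Probe set 1417558_at, from the same record, had 532, 473 and 467 on WT and 649, 680.3 and 633 on KI arrays (0.42, SE 0.09, adjusted p = 0.00894 by limma). The highest WT array was WT 1 on both. The rise did not pass under spike-in scaling (0.29 and 0.21, adjusted p = 0.122 and 0.184) and turned to -0.03 and -0.11 under older spike-in scaling. The first probe set also missed the threshold with the replicate number as a block (adjusted p = 0.0538), and both did with the number given in each description as a covariate (adjusted p = 0.0896 and 0.0533).

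Fgr, a Src family kinase of myeloid cells, overlapped between the groups. Probe set 1419526_at had 346, 470.1 and 541 on WT arrays and 450.1, 408 and 356 on KI arrays, with WT 1 as the lowest array of all (-0.14, SE 0.18, 95% interval -0.56 to 0.28, adjusted p = 0.543 by limma). Probe set 1442804_at had 333, 401 and 431 on WT and 308, 380.5 and 272 on KI arrays (-0.28, SE 0.15, 95% interval -0.65 to 0.08, adjusted p = 0.173 by limma). Without WT 1 and KI 1 the first passed as lower (-0.40, adjusted p = 0.0141) and the second did not (-0.37, adjusted p = 0.0703). The second passed as lower under spike-in scaling (-0.49, adjusted p = 0.0369), and both under older spike-in scaling (-0.67 and -0.81).

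Yes1, a broadly expressed relative of Src, was near the floor of the array. Its 4 probe sets had intensities between 14.1 and 34.0 on the 6 arrays, and all had a mean below the median of all probe sets. The groups overlapped on 3 of them, and on the last the lowest WT and highest KI value both round to 27.0. Without the filter their differences ran from -0.17 to 0.04, with adjusted p of at least 0.255 by limma. At such intensities a difference in Yes1 was not detectable.

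Syk, the kinase that reads phosphorylated ITAMs, gave similar values in both genotypes on its brighter probe sets. Probe set 1418261_at had 2895, 3419.5 and 3676 on WT arrays and 4057, 3391 and 3504 on KI arrays. WT 1 was the lowest and KI 1 the highest array, and the other 4 lay between 3391 and 3676 (log2 difference 0.14, SE 0.11, 95% interval -0.13 to 0.40, adjusted p = 0.36 by limma). The same 2 arrays were the extremes on 1418262_at, with 877, 1169 and 1249 on WT and 1441, 1123 and 1199.9 on KI arrays (0.20, adjusted p = 0.342), and on 1425797_a_at, where WT arrays ran from 165 to 206 and KI arrays from 179.9 to 229.9 (0.11, adjusted p = 0.539). Without them the 3 differences were -0.04, -0.06 and -0.08, and under spike-in scaling -0.07, -0.01 and -0.10. The dimmest, 1457239_at, differed from the others: it had 89.3, 91.1 and 88.4 on WT and 124, 109 and 114 on KI arrays, without overlap (0.36, SE 0.08, adjusted p = 0.0127 by limma). With the mean over the 4 probe sets the gene did not pass (0.20, adjusted p = 0.167), nor did this probe set under spike-in scaling (0.16), and it turned to -0.17 under older spike-in scaling. Whether the 4 probe sets read the same transcript of Syk was not tested.

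Tec, which gave its family its name and acts downstream of cytokine and ITAM receptors, had the largest rise of these genes. Its only probe set had intensities of 1217, 1269 and 1297 on WT arrays and of 2426, 2191 and 2228 on KI arrays. The lowest KI array was well above the highest WT array, and KI 1 was the highest. The difference of 0.85 (SE 0.07, 95% interval 0.68 to 1.03, adjusted p = 0.000621 by limma) is a 1.81-fold higher level, with rank 1310 among the rises. It passed in 18 of 19 alternatives and stayed above 0 in all 19, the exception being older spike-in scaling (0.32, adjusted p = 0.293).

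Btk, the Tec family kinase of B cells and myeloid cells, did not differ beyond the spread of the arrays. Its values were 2874, 2849 and 3092 on WT arrays and 2983, 3173 and 3119 on KI arrays. The groups overlapped, and on the deposited scaling the 95% interval of the log2 difference ran from -0.08 to 0.23 (0.07, SE 0.07, adjusted p = 0.391 by limma). Spike-in scaling turned the difference to -0.13 (adjusted p = 0.284) and older spike-in scaling to -0.46 (adjusted p = 0.13). Both lie below that interval, so a larger fall is left out only if the deposited scaling holds.

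Plcg2, the phospholipase C gamma of blood cells, which cleaves PIP2 when Syk, Btk or Tec have activated it, was slightly higher in KI cells. The WT arrays had 3155, 3086 and 3119.6 and the KI arrays 3454, 3637 and 3666. These groups did not overlap, and WT arrays lay close together (log2 difference 0.20, SE 0.06, 95% interval 0.06 to 0.34, adjusted p = 0.0291 by limma), a 1.15-fold difference. The call ended without WT 2 (adjusted p = 0.083), WT 3 (0.0751), KI 2 (0.0968) or KI 3 (0.116), with the replicate number as a block (0.122) and with the covariate (0.20). The difference turned to -0.01 under spike-in scaling and to -0.33 under the older one.

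Pairs of these genes were also compared within each array, which takes out the scaling of the array. The difference between the brightest probe sets of 2 genes was taken on each array and its mean compared between genotypes in 5 pairs by a two-sided exact permutation test. The smallest p that 3 against 3 arrays can give is 0.1, so no pair could reach 0.05. Only the change between genotypes is read, since levels of different probe sets are not comparable. Src minus Fyn was 1.05, 1.38 and 1.57 on WT arrays and -0.86, -1.02 and -0.92 on KI arrays. That is a change of -2.27 (exact permutation p = 0.1, adjusted p = 0.125 over the 5 pairs), with no overlap of the groups. Src also fell against Fgr, in which the change was -1.63 (exact permutation p = 0.1). Against Yes1 the change was -1.60, but nothing is read from it because Yes1 was near the floor. Btk minus Tec was 1.24, 1.17 and 1.25 on WT arrays and 0.30, 0.53 and 0.49 on KI arrays, a change of -0.78 (exact permutation p = 0.1). These 3 pairs, without that of Yes1, are at the smallest p the design allows. Syk minus Plcg2 changed by -0.07, less than the SD of 0.19 and 0.18 within the groups (exact permutation p = 0.9).

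**Figure D3:**
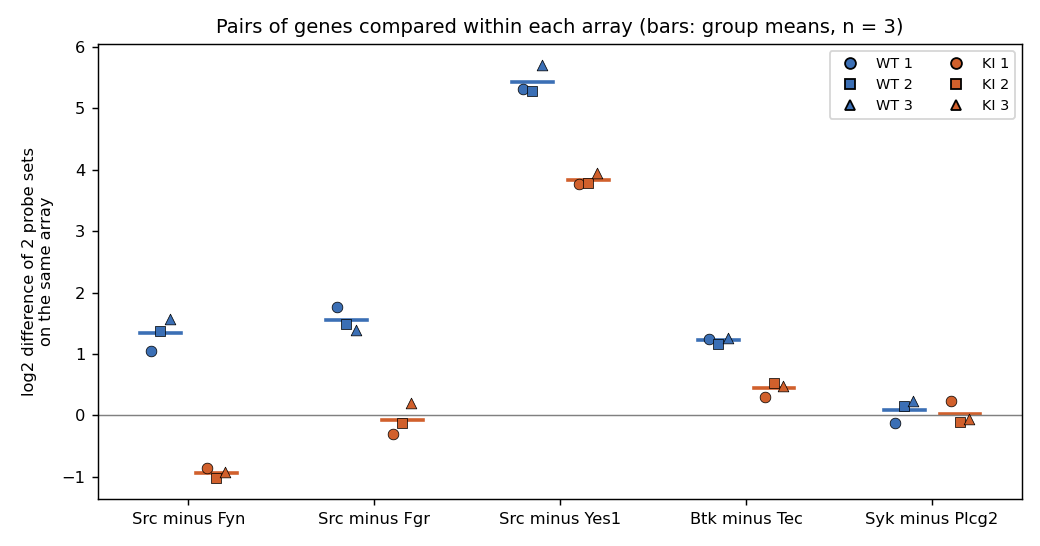
Difference between the log2 intensities of 2 genes on the same array (y axis, log2 units) for 5 pairs (x axis), with 1 symbol per array and bars for the means of 3 WT and 3 KI arrays. The height of a pair has no meaning by itself; WT and KI arrays are separate in Src minus Fyn and Src minus Fgr, with changes of -2.27 and -1.63, and in Btk minus Tec, and overlap in Syk minus Plcg2. Src minus Yes1 is drawn too, but Yes1 was near the floor.

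Markers of cell types that are rich in some of these kinases were read beside the results. B cells, which use Lyn, Syk, Btk and Plcg2, have 7 markers with a probe set of their own. Of these 6 had a mean intensity under 100 and only Cd79b could be tested, with a difference of -0.01 (adjusted p = 0.978 by limma), and the sum ran from 361 to 504 on WT and from 396 to 462 on KI arrays. All 6 mast cell and basophil markers had a mean under 100. Neutrophils, which express Fgr, had higher markers in KI cells: 4 of 6 tested rose (1 rose and 1 fell under older spike-in scaling), and the sum ran from 4236 to 5624 on WT and from 6452 to 13712 on KI arrays. The stromal sum, of 2637 to 8718 on WT and of 2535 to 9859 on KI arrays, varied more within than between the genotypes, while 1 of the 4 tested stromal markers, Dcn, fell by 1.44 (adjusted p = 0.00071 by limma), from a mean of 167 to 61.0. Of 7 T and NK cell markers 4 had a mean under 100, 3 could be tested and 1, Il7r, rose, with sums of 924 to 1032 and 1637 to 1824. Most of the rise in the sum is that of Il7r, from a mean of 488 to 1145. Cd3e and Cd4 did not pass (-0.02 and 0.65, adjusted p = 0.898 and 0.155 by limma). Of 4 megakaryocyte markers 3 could be tested and 1, Pf4, rose, with sums of 2402 to 3297 and 7420.0 to 9079. Nearly all of that rise is Pf4, from a mean of 2447 to 8013.5. Itga2b and Gp9 did not pass (-0.04 and 0.02, adjusted p = 0.685 and 0.882 by limma). The part of neutrophil, stromal, T and NK or megakaryocyte RNA, and that of the shift from osteoclast to macrophage markers, in the kinase differences was not tested.

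Other kinases near these families were mostly higher in KI cells where they could be measured. Each gene of this and the next lists was read on its brightest probe set; the 10941 genes so tested had a median of -0.03, and 20.9% were higher and 27.0% lower. Of 14 related kinases 10 had a probe set and 6 were tested, of which 5 rose and 0 fell (median 0.46). Abl1 rose by 0.88 (SE 0.09, adjusted p = 0.00112 by limma) and Ptk2b, the adhesion kinase Pyk2 that works with Src in podosomes, by 0.78 (SE 0.09, adjusted p = 0.00156). Their intensities were 1057 ± 72.5 and 1949.6 ± 166 (SD, n = 3) for Abl1 in WT and KI cells, and 430.1 ± 37.1 and 738 ± 34.2 (SD, n = 3) for Ptk2b. The dimmer Abl1 probe set 1444134_at did not pass (0.19, adjusted p = 0.117 by limma). Fes, a kinase of myeloid cells, rose by 0.62 and Zap70, the Syk relative of T cells, by 0.27, though Zap70 turned to -0.26 under older spike-in scaling, where Abl1 (0.35), Ptk2b (0.25) and Fes (0.09) did not pass. Only 1 of the 3 Zap70 probe sets was bright enough to be tested. The call of Zap70 also ended under spike-in scaling (0.06, adjusted p = 0.613), with 1 mean per gene (0.06, 0.604), with the replicate number as a block (0.0888), with the covariate (0.167), and without any of WT 2, WT 3, KI 2 or KI 3 (0.0525 to 0.0929). Without 1 of those arrays 3 related kinases were higher, as under spike-in scaling, where 1 was lower, and 0 were higher and 1 lower under older spike-in scaling. Blk, Frk, Bmx and Txk were too dim for the filter and were not tested. Without the filter Bmx differed by 0.55 (adjusted p = 0.0489 by limma) and Txk by -0.60 (0.17), each without overlap of the groups. Bmx had mean intensities of only 27.1 in WT and 39.9 in KI cells. Blk and Frk then differed by -0.03 and -0.07 (adjusted p = 0.835 and 0.794 by limma).

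Adaptors and substrates of the kinases split between directions. Of 33 genes 13 rose, 5 fell and 15 did not pass (median 0.14), but 7 rose and 9 fell under spike-in scaling, and 3 and 9 under the older one. Cttn, the actin regulator cortactin and a classical Src substrate, had the largest fall of the list, from 1468 ± 374 in WT to 522 ± 114 (SD, n = 3) in KI cells (-1.49, SE 0.22, adjusted p = 0.00299 by limma), and was lower on 4 of 4 tested probe sets. Pxn, the focal adhesion and podosome protein paxillin, fell by 0.52 (SE 0.06, adjusted p = 0.00113) and on 3 of 3 probe sets, from 11321 ± 697 to 7893 ± 111 (SD, n = 3) on the brightest. Sh3kbp1, an adaptor of Cbl, fell by 0.52 (SE 0.06, adjusted p = 0.00124) and Lat, an adaptor that binds phospholipase C gamma, by 0.79. Among the rises were Afap1l1, an actin-associated protein (1.24, SE 0.11), Pik3cg, a catalytic subunit of phosphoinositide 3-kinase (1.20, SE 0.10), Prkcb, a protein kinase C that diacylglycerol activates (1.46, SE 0.26), and Vav1, an exchange factor for Rac (0.76, SE 0.12; 0.23 and not passed under older spike-in scaling). The adaptors that bridge Syk to Plcg2 were not among those called: Blnk differed by 0.12 (adjusted p = 0.268; -0.09 under spike-in scaling) and Lcp2 by -0.17 (adjusted p = 0.094; passed as lower at -0.37 and -0.70 under the spike-in scalings). Cttn, Lat, Prkcb, Vav1, Blnk and Lcp2 were chosen after their values were seen.

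Genes listed as negative regulators were more often higher than lower. Of 28 such genes 17 rose, 2 fell and 9 did not pass (median 0.39), but 11 rose and 4 fell under spike-in scaling, and 1 and 4 under the older one. Ptpra rose by 0.69 (SE 0.05, adjusted p = 5e-04 by limma), from 2988 ± 70.8 to 4805 ± 44.9 (SD, n = 3), and Ptpre by 0.88 (SE 0.08, adjusted p = 8e-04). Both are receptor-type phosphatases that can also remove the inhibitory phosphate from the tail of Src kinases, so their known action is not only negative. Cbl, a ubiquitin ligase that binds Src and Syk, rose by 0.68 (SE 0.07, adjusted p = 0.00105), and Pag1, the membrane anchor of Csk, by 0.65 (SE 0.07, adjusted p = 0.0011). The dimmer Pag1 probe set 1423002_at did not pass (0.0026, adjusted p = 0.984 by limma). Under older spike-in scaling these 4 genes stayed above 0 on their brightest probe sets, at 0.12 to 0.35, and did not pass. Csk itself, which phosphorylates the inhibitory tail tyrosine of Src kinases, rose by 0.33 (SE 0.10, adjusted p = 0.0361). It did not pass without WT 2, KI 1, KI 2 or KI 3, under spike-in scaling (0.13), without the filter (adjusted p = 0.0828), with the replicate number as a block (0.0967) or with the covariate (0.143), and turned to -0.20 under older spike-in scaling. The phosphatases Ptpn6 (SHP-1) and Inpp5d (SHIP-1) rose by 0.45 and 0.68, and neither passed under older spike-in scaling (-0.08 and 0.15). Ptpn6 also missed the threshold under spike-in scaling (0.24, adjusted p = 0.0617) and with the covariate (adjusted p = 0.0681). The dimmer Ptpn6 probe set 1456694_x_at did not pass (0.20, adjusted p = 0.179 by limma). The falls were those of Ptpn22, a phosphatase that acts on Src kinases together with Csk (-0.84, SE 0.11), and Ptpn12, the phosphatase PTP-PEST (-0.46, SE 0.07, lower on 4 of 4 probe sets). Csk, Ptpn6, Inpp5d, Ptpn22 and Ptpn12 were chosen after their values were seen.

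Receptors and adaptors that feed the kinases were mostly higher in KI cells. Of 14 ITAM adaptors and integrin receptors 9 rose, 1 fell and 4 did not pass (median 0.60), but 8 rose and 2 fell under spike-in scaling, and 5 and 2 under the older one. The 4 with the smallest p were the lipid receptor Trem2 (1.60), the integrin chain Itgb5 (1.60), the Fc receptor Fcgr1 (1.57) and the adaptor Fcer1g (0.56; 0.03 under older spike-in scaling). Tyrobp, which encodes DAP12, rose by 0.27 and turned to -0.26 under older spike-in scaling. It did not pass under spike-in scaling (0.06, adjusted p = 0.443), without the filter (0.0555), with the replicate number as a block (0.0553) or with the covariate (0.0557). Itgav, the integrin alpha v chain, fell by 0.59, which missed the threshold without KI 1 (adjusted p = 0.0588), without KI 3 (0.0622), without the filter (0.0659), with the replicate number as a block (0.056), with the covariate (0.0767) or with 1 mean per gene (0.10). Itgb3, its partner in the vitronectin receptor, differed by 0.00 (SE 0.21, adjusted p = 0.988 by limma). The spike-in scalings moved the difference to -0.20 and -0.53. The only tested Itgb3 probe set was dim, with mean intensities of 91.8 in WT and 91.3 in KI cells. On the deposited scaling the confidence interval of its difference ran from -0.49 to 0.50, so a rise or fall within those limits is not excluded. The value of -0.53 lies below that interval, so a larger fall is left out only if the deposited scaling holds. Tyrobp, Itgav and Itgb3 were chosen after their values were seen. The list shares Itgam, Fcgr1 and Oscar with the marker lists above.

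**Figure D4:**
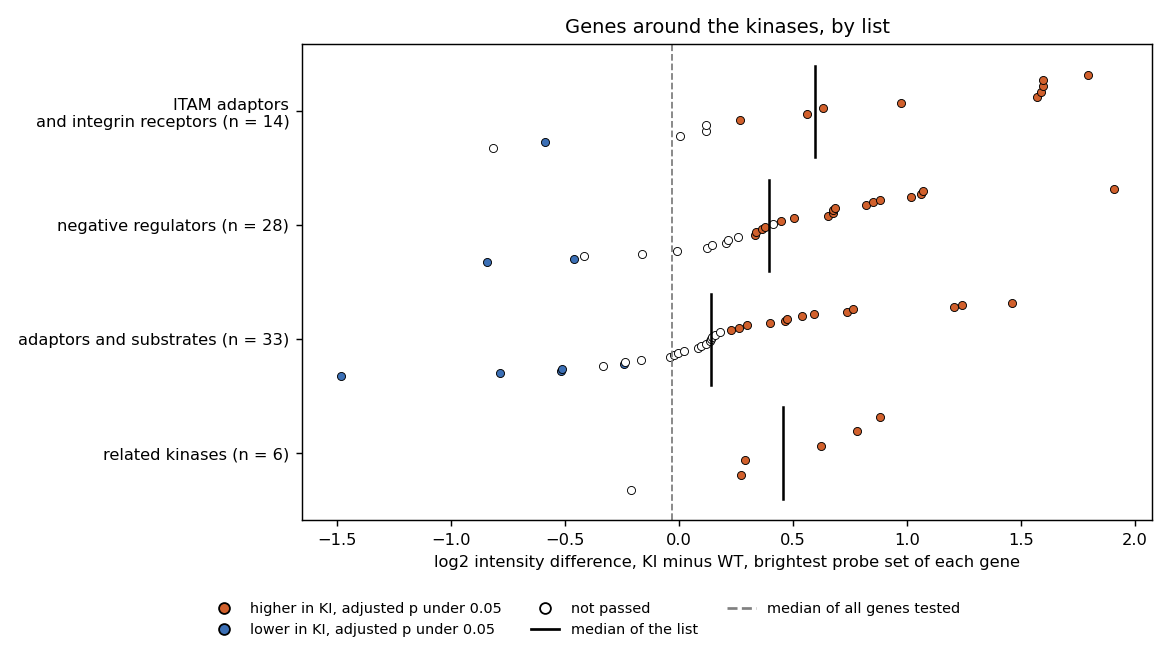
Log2 intensity difference between KI and WT arrays (x axis) of the tested genes of 4 lists (y axis, number tested in brackets), each on its brightest probe set; filled points passed an adjusted p of 0.05. Solid lines are list medians, at 0.46, 0.14, 0.39 and 0.60 from bottom to top, and the dashed line is the median of all genes, -0.03; these are deposited values, and older spike-in scaling moves every point down by 0.53, which turns the smaller rises.

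For each gene the other gene with the most similar values over the 6 arrays was found, as the smallest root mean square distance of centred log2 intensities between brightest probe sets. With 6 arrays in 2 groups such likeness mostly reads the genotype difference, and it is a description. Agrn lay nearest to Src (distance 0.06, Pearson r = 0.998 across the 6 arrays, difference -1.81), and was the only 1 of 10940 genes within 0.1 of it. Arhgap31 was nearest to Tec (0.03, with 111 genes within 0.1) and Itpr2, an IP3 receptor through which calcium leaves the stores, to Fyn (0.03, with 74 genes within 0.1). Fgr had 11 genes within 0.1, with Slc25a42 the nearest. Plcg2, Syk and Btk had 1256, 685 and 1881, so that their nearest genes (Rab2a, 1810058I24Rik and 9330198N18Rik) are 1 among many.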

How the data were processed

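Total RNA of 3 WT and 3 KI samples was reverse transcribed from an oligo-dT primer, labelled with biotin and hybridised to Affymetrix arrays, per the labels' protocols. The authors deposited a linear intensity for each probe set of each array. Affymetrix Expression Console was used, per the submitters' processing notes, with version, summarisation and normalization not given in the sources used here. Of 45101 probe sets 64 controls were left out of the tests, and 34945 of the others were paired with 1 gene, of which 34741 matched RefSeq's gene table (GRCm38.p6) by gene ID. Intensities were floored at 16 (5.46% lay below), put on the log2 scale, filtered at the median of the probe set means and tested in R 4.3.3 with limma 3.58.1 (lmFit, eBayes with an intensity trend, 95% intervals). The number of arrays limits the precision. Only the limma fit was tested on simulated data, with far fewer changed probe sets than were called here. The filter, the scalings, the pairs, the likeness and the promoter search were not.

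The genes and the lists of related kinases, adaptors and substrates, negative regulators, ITAM adaptors and integrin receptors, and cell type markers were chosen with earlier results of these data known. Named were all probe sets of the 9 genes, 4 genes per list with the smallest p, Tnfrsf11a and the nearest gene to each, besides those said to be chosen after their values were seen. Cell type markers were planned as lists only, and those named singly were chosen after their values were seen. The related kinases below the filter are named as well. A planned pair of Src with Lyn was not analysed here. Alternatives were quantile normalization, 2 spike-in scalings, no filter or the brightest 30%, 32 added before log2, other variance priors, the replicate number as a block, the description number as a covariate, leaving out arrays, averaging the probe sets of a gene, and dropping those with _x, _s or _a in the name.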

Additional observations from a re-analysis of the deposited data

How the results depend on the processing

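Over the 13 tested kinase and Plcg2 probe sets and the alternatives tried, 207 values kept their direction and side of the threshold, 14 lost the call, 4 gained it and 17 changed sign. Against 5 higher kinase probe sets, there were 1 under spike-in scaling, 0 under older spike-in scaling and 3 with the replicate block. The count was 2 with the description number as covariate, 4 with the brightest 30% and 3 genes with 1 mean per gene. Without WT 2, WT 3, KI 2 or KI 3 it was also 4. Against 2 lower ones, there were 3 under spike-in scaling, 4 under older spike-in scaling and 3 without both WT 1 and KI 1. Lower were also 1 without _x, _s or _a probe sets (which leaves 1 of the Src probe sets) and 1 gene with 1 mean per gene. Related kinases were higher in 3, 0, 3 and 3 cases under spike-in scaling, older spike-in scaling, the replicate block and the covariate, in 3 to 5 when 1 array was left out, and lower in 1 under either spike-in scaling. Adaptors and substrates were higher in 7, 3 and 8 cases under spike-in scaling, older spike-in scaling and the covariate, and lower in 9 under either scaling; negative regulators were higher in 11, 1 and 11, and lower in 4 under either. ITAM adaptors and integrin receptors were higher in 5 under older spike-in scaling, 5 without the filter and 4 with the covariate; they were lower in 2 under either scaling, in 0 without the filter, with the replicate block, with the covariate or with 1 mean per gene, and in 0 to 1 when 1 array was left out.

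Signs turned under spike-in scaling for Syk (-0.071, -0.0066 and -0.10 on 1418261_at, 1418262_at and 1425797_a_at), Btk (-0.13), Plcg2 (-0.0060) and Blnk (-0.088), and under older spike-in scaling for Fyn (-0.11 and -0.032), Syk (-0.39, -0.33, -0.42 and, on 1457239_at, -0.17), Btk (-0.46), Plcg2 (-0.33), Zap70 (-0.26), Csk (-0.20), Ptpn6 (-0.081), Tyrobp (-0.26), Blnk (-0.41) and Itgb3 (-0.53; -0.20 under spike-in scaling), as the shift by a constant makes them. With WT 1 and KI 1 both left out the 3 brighter Syk probe sets gave -0.041, -0.059 and -0.080 and Blnk -0.0017, and without single arrays Syk 1425797_a_at ranged from -0.0022 to 0.19 and Itgb3 from -0.14 to 0.20. The change of Syk minus Plcg2 was -0.28 without WT 1 and KI 1, 0.00063 with 1 mean per gene, and -0.17 to 0.0099 without single arrays. Where no cause is named it was not tested.

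Over all probe sets the replicate block left 6184 calls and the covariate 6481, of 10101. Same-numbered WT and KI arrays deviated from their group means with correlations of -0.40, -0.29 and -0.30, and 0 of 6 arrays correlated best with their own number. Such correlations read only a shift in the same direction in both genotypes, so they cannot decide whether the replicate numbers pair the arrays. Yes1 and 4 related kinases lay below the filter at the median and were not tested. Without the filter 6 related kinases were higher.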

Other observations

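Pik3cd, the phosphoinositide 3-kinase subunit of leukocytes and a listed effector of these kinases, gave conflicting probe sets. The brightest of the 5 tested, 1443798_at, had 8639 ± 1920 in WT and 8399 ± 1084 (SD, n = 3) in KI cells (log2 difference -0.02, adjusted p = 0.926 by limma). The other 4 were higher in KI cells, by 0.63 to 0.91, for example 1432 ± 132 against 2687 ± 254 (SD, n = 3) on 1453281_at (adjusted p = 0.00135 by limma), so that the gene is not among the 13 adaptors and substrates counted as higher. Which probe sets read the coding transcript was not tested.

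Sla, which encodes the Src-like adaptor SLAP that lowers the amount of Src-family and receptor targets, was higher on 4 of 4 tested probe sets, by 0.75 to 1.02, with 1090.2 ± 214.96 in WT and 2179 ± 108 (SD, n = 3) in KI cells on the brightest. Oscar, an ITAM-linked co-receptor that osteoclasts express, was lower on its second probe set (-1.13, adjusted p = 0.0141 by limma) and did not pass on the brighter (-0.81, adjusted p = 0.0705). Pik3cd, Sla and Oscar were chosen after their values were seen. Their differences are those of the deposited scaling, and older spike-in scaling moves each down by 0.53.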
